A study of Mus musculus with 36 samples.

Results

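The unmyelinated optic nerve (UON) of C57BL/6 mice was compared 2 weeks (2 W) after optic nerve crush with the UON of naïve mice, in 2 libraries of each group taken by tissue, treatment and time from the sample labels, which is 4 of the 36 libraries of the series. Mice were 2 to 4 months old. The optic nerve of 1 eye had been squeezed for 3 seconds with self-closing forceps behind the globe, so the lesion lay in the nerve behind the UON. The UON is the short piece cut flush at the globe, and the naïve mice had no injury to either eye. Each library was made from total RNA of 2 mice of 1 sex mixed in equal amounts, so each group was 1 female and 1 male pool (n = 2 pools, 4 mice). A pool therefore stands for its mice and its sex at once. With sex as a term of the model, p-values measure the spread of pools around a sex difference shared by all groups of the fit. They do not measure the spread between mice. Neither group carried a transgene, and the naïve mice were not sham operated.

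The UON holds the bare axons of retinal ganglion cells (RGCs) among fibrous astrocytes, microglia and capillaries, before oligodendrocytes begin to wrap the axons further back. A crush cuts these axons off from their targets, the axon beyond the lesion is broken down, and the cell bodies in the retina die over the following weeks. Microglia and macrophages clear axon debris by phagocytosis, with Fc receptors, complement and TREM2 as receptors and opsonins, and astrocytes respond with a change in form and gene expression.

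The 4 libraries held between 47.7 M and 58.5 M estimated counts, of which a read pair makes up about 4. Pairs of values below give the female pool first and the male pool second, in CPM (counts scaled to library size) after TMM scaling unless said otherwise, and 3 read pairs are worth 0.211 to 0.261 CPM in these libraries. Xist and Y-linked genes matched the labelled sex in 6 of 6 UON libraries of the fit, which also held the 2 pools taken 3 days (3 D) after crush. Gfap, the astrocyte filament, was at 11832 and 15083 CPM in the naïve pools. It does not set the UON apart from the myelinated nerve behind it. Without TMM scaling, Gfap was at 11570 and 14510 CPM in naïve UON and 10210 and 8412 in that nerve. Cartpt, a peptide gene, was at 5443 and 3828 in naïve UON and 8.1 and 11.5 in that nerve. The myelin gene Mbp was at 18750 and 13800 in naïve UON and 82050 and 74200 in that nerve. The male 2 W pool stood apart from the rest, with correlations of log CPM of 0.868 to 0.882 with the other 5 libraries, which correlated at 0.91 to 0.944 among themselves. The summed CPM of 25 oligodendrocyte and myelin genes was 5904 in that pool and 25060 to 32540 in the other 5. It also held the most RNA of pigment cells and skeletal muscle, with summed CPM of 71.3 over 9 and 53.8 over 12 marker genes, where the other 5 libraries had 14.5 to 22.8 and 10.2 to 21.6. The naïve male pool held the most of 11 surface epithelium genes, at 167.5 against 5.57 to 29.9 in the other 5. The part of these cells in the results was not tested. For several lists, counts of DESeq2 calls are also given without single pools that moved them.

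Between naïve and 2 W UON, 6 genes fell, among them Kif5a of axonal transport, Rph3a of synaptic vesicles and Sptbn4 of the axon initial segment. By edgeR's quasi-likelihood test with sex as a term, 6 of 21368 genes passed an adjusted p of 0.05 and a log2 fold change beyond 1, and 6 of 6 were lower after crush, which is 0.0281% of the genes tested, with 0 genes (0%) higher. The fit had 2 residual degrees of freedom and a biological coefficient of variation of 0.654, and 1980 genes had an unadjusted p under 0.05, where 1068 would be expected by chance. DESeq2 with the study's model called 220 of 19328 genes higher (1.14%) and 295 lower (1.53%), and the 6 edgeR genes were among them. Both 2 W pools lay above both naïve pools for 4214 genes (19.7%) and below them for 5286 (24.7%). The median log2 fold change of all genes tested was -0.09. Below, "rose" or "fell" is kept for the 6 edgeR genes, and genes that DESeq2 alone called are said to be called by DESeq2. Of the 515 DESeq2 calls, 46 were made again in each of the 4 fits that left out 1 of the 4 pools, 20 of them higher and 26 lower. The count of DESeq2 calls was 323 without the male 2 W pool, 1976 without the female 2 W pool, 339 without the naïve female pool and 116 without the naïve male pool, and 196, 366, 194 and 77 of these in that order were among the 515. The edgeR count was 29, 42, 16 and 19 in the same order.

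**Figure D1:**
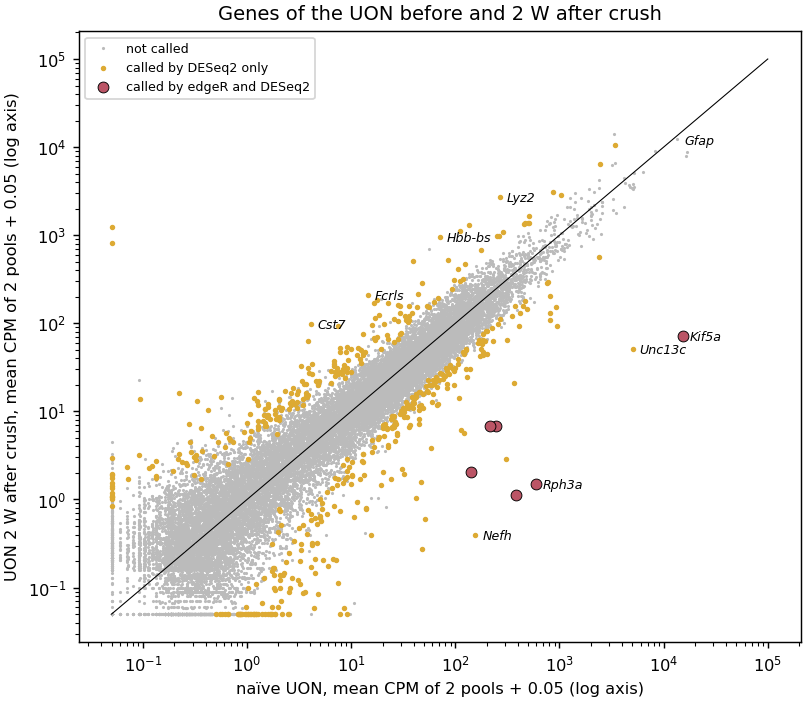
Mean CPM of the 2 naïve UON pools (x axis) against the mean of the 2 pools at 2 W after crush (y axis), both plus 0.05 on log axes, for the 21368 genes tested. The 6 genes called by both tools (red) lie far below the diagonal of equal levels, Gfap lies on it, and Fcrls, Cst7, Lyz2 and Hbb-bs are among the genes above it that DESeq2 alone called (yellow).

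Kif5a, the neuronal heavy chain of the kinesin motor for fast axonal transport, was 1 of the 6 genes. It had 13496 and 17093 CPM in the naïve pools, 8334 and 3733 at 3 D and 98.8 and 44.9 at 2 W (ENSMUSG00000074657, GRCm38 chr10:127225696-127263348, minus strand). It fell by 7.90 on the log2 scale (standard error 0.62, edgeR adjusted p = 0.0236). Rph3a (chr5:120940499-121010092), the rabphilin of synaptic vesicles, went from 495 and 684 CPM to 1.75 and 1.18, with log2 fold change -8.69 (standard error 0.53, edgeR adjusted p = 0.0166). For both genes the 2 W pools lay far below the others, and the 3 D pools sat between, nearer to the naïve pools on a log scale. Both 3 D pools already lay below both naïve pools for each gene.

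Sptbn4 (chr7:27356383-27447686), the βIV spectrin of the axon initial segment and nodes of Ranvier, was at 284 and 478 CPM in naïve UON and at 1.61 and 0.546 at 2 W (log2 fold change -8.69, standard error 0.76, edgeR adjusted p = 0.0336). Mapk8ip2 (chr15:89453913-89464468), a scaffold of JNK signalling carried by kinesin, went from 198 and 298 to 7.22 and 6.29 CPM (log2 fold change -5.21, edgeR adjusted p = 0.0331). Nrsn1 (chr13:25252040-25270502), a vesicle protein of neurites, went from 197 and 238 to 6.42 and 7.24 CPM (log2 fold change -4.99, edgeR adjusted p = 0.0166). Vwa5b2 (chr16:20589471-20605377) went from 111 and 173 to 2.49 and 1.48 CPM (log2 fold change -6.18, edgeR adjusted p = 0.0236). In 6 of 6 genes the groups did not overlap, and the pools of a group differed far less than the groups did. The calls were made again with any 1 of the 4 pools left out, except for that of Mapk8ip2 without the female 2 W pool. In a fit of the 4 naïve and 2 W libraries alone, which leaves 1 residual degree of freedom, edgeR called 0 genes and DESeq2 498.

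The neurofilament genes, which encode the intermediate filaments of large axons, were lower in 4 of 5 members. Nefh was at 114 and 195 CPM in naïve UON, 120.4 and 49.6 at 3 D and 0.623 and 0.0704 at 2 W, where the male pool is below the worth of 3 read pairs (edgeR adjusted p = 0.0915, DESeq2 adjusted p = 1.37e-37). Nefl went from 102 and 138 to 7.98 and 3.15 CPM and had not yet moved at 3 D, with 132 and 98.3 CPM. Ina went from 11.5 and 16.3 to 0.934 and 0.546 CPM, and Nefm from 10.5 and 15.1 to 2.22 and 3.17 CPM. DESeq2 called all of these 4 genes lower, with adjusted p of 2.58e-17 (Nefl), 1.7e-08 (Ina) and 0.0137 (Nefm), while edgeR gave 0.0996, 0.21 and 0.48. The median log2 fold change of the list was -4.17 against -0.09 for all genes.

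Presynaptic release genes outside the lists showed the same order of values; they were named after their values were seen. Unc13c, which primes synaptic vesicles, had 3540.5 and 6510.1 CPM in naïve UON and 87 and 15.2 at 2 W (log2 fold change -6.88, edgeR adjusted p = 0.162, DESeq2 adjusted p = 2.88e-05). Rims1, a scaffold of the active zone, had 35 and 61.5 and then 0.409 and 0.0352 CPM (DESeq2 adjusted p = 2.09e-24, edgeR adjusted p = 0.122). Ppfia3, a liprin that binds it, had 242 and 374 and then 4.71 and 0.881 CPM (DESeq2 adjusted p = 1.14e-29, edgeR adjusted p = 0.106). All 3 were called lower by DESeq2 in each fit that left out a pool.

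Some RGC genes were at 0 in both 2 W pools, so that only a lower bound of the change can be given, against the worth of 3 read pairs in each pool. Tmem151b was at 7.38 and 10.8 CPM in naïve UON and at least 41-fold lower at 2 W, and it was still at 5.85 and 7.25 CPM at 3 D. Chrna3 and Chrnb3, subunits of neuronal nicotinic receptors, were at 3.97 and 11.4 CPM and 2.17 and 2.77 CPM in naïve UON and at least 34.6-fold and 11.1-fold lower. Scn1a, a neuronal sodium channel, was at least 7.6-fold lower. DESeq2 called these 4 genes lower and edgeR did not, with adjusted p of 0.0996 for Tmem151b and 0.26 for Chrna3. Of 9 markers of RGC cell bodies, 7 passed the filter on low counts, 0 were positive in sign, and DESeq2 called Nrn1 (6.02 and 5.51 against 0.72 and 0.564 CPM) and Pou4f1 (0.372 and 0.631 against 0 in both) lower. Without the male 2 W pool or either naïve pool it called 0 of the markers.

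The wider set of neuronal RNAs was less uniform. Over all genes tested, 24.7% lay lower without overlap and 19.7% higher, beside which the counts of the next list are to be read. In a list of 20 axonal and synaptic RNAs the median log2 fold change was -0.18, 8 members lay lower without overlap and 5 higher, and DESeq2 called Kif5a, Calb2, Snap25 and Map1b lower, and 2 of the 20 with either naïve pool left out. Calb2 went from 8.83 and 12.4 to 0.389 and 0.775 CPM (DESeq2 adjusted p = 6.4e-10, edgeR adjusted p = 0.171). Snap25, a part of the release machinery, went from 20.7 and 24.5 to 3.89 and 3.94 CPM (DESeq2 adjusted p = 0.000214, edgeR adjusted p = 0.312), and Map1b from 519.7 and 461 to 176 and 117 CPM. Uchl1, an abundant ubiquitin hydrolase of neurons, was at 131 and 144 CPM in naïve UON and 242 and 237 at 2 W (log2 fold change 0.80, edgeR adjusted p = 0.518). In bulk tissue, fewer cells or axons and less RNA in each cannot be told apart.

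**Figure D2:**
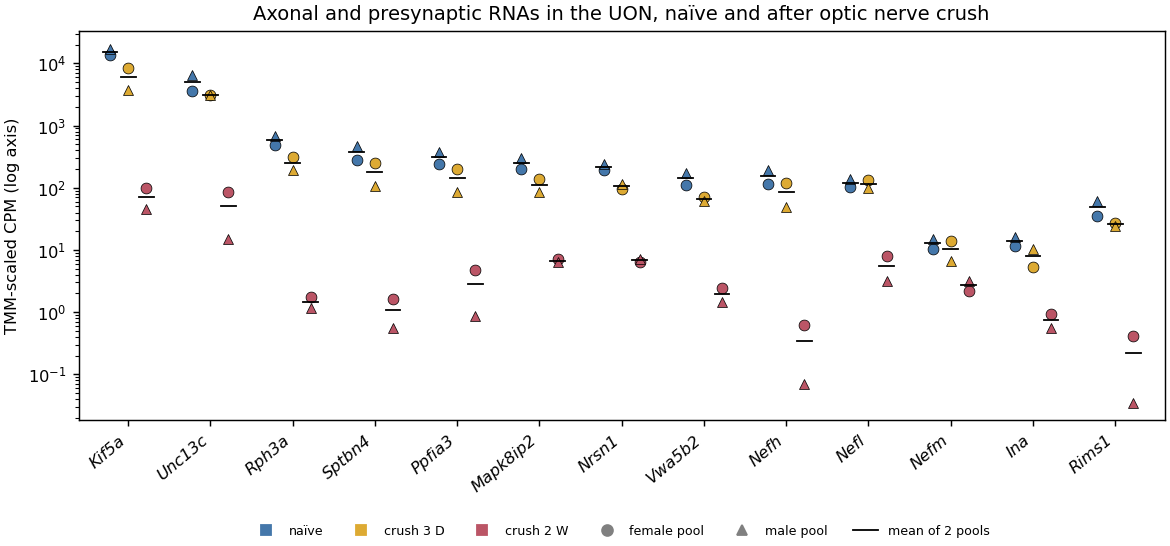
TMM-scaled CPM on a log axis of 13 axonal and presynaptic genes in each UON pool, naïve (blue), 3 D (yellow) and 2 W (red) after crush, with circles for female and triangles for male pools and bars for the mean of 2 pools. For each gene both 2 W pools lie below both naïve and both 3 D pools.

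Where these RNAs lie in the uninjured eye differed from gene to gene. In CPM without TMM scaling, Kif5a was at 13190 and 16440 in naïve UON, 10150 and 6345 in naïve myelinated optic nerve (MON) and only 158 and 168 in naïve retina, where the RGC bodies are. Unc13c was at 3461 and 6262, 1496 and 1202 and 93.4 and 98.6 in the same tissues. Snap25 had the opposite order, with 20.3 and 23.6 in UON and 1892 and 1853 in retina, and Nefl had 99.5 and 133 and 781 and 747. At 2 W after crush the retina held 91.1 and 73.8 for Kif5a and 102 and 86.4 for Nefl. Levels are compared here between tissues for 1 gene at a time, and these tissue differences were not tested.

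On the other side, DESeq2 called many genes of microglia and macrophages higher, and edgeR called none of them at its adjusted p. In a list of 22 genes of phagocytic microglia, 18 lay higher in both 2 W pools than in both naïve pools, where 19.7% of all genes did. DESeq2 called 11 of the 22 higher, where it called 1.14% of all genes, and the median log2 fold change was 2.02. In a list of 15 Fc receptor and myeloid surface genes, 14 did not overlap and DESeq2 called 8, with a median of 2.195. At an unadjusted edgeR p under 0.05 there were 16 of the 22 and 14 of the 15. These counts depended on single pools: without the naïve male pool DESeq2 called 7 of the 22 and 1 of the 15.

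Fcrls, an Fc receptor-like protein of microglia (chr3:87250758-87263738), was at 16 and 12.6 CPM in naïve UON, 62.2 and 71.4 at 3 D and 269 and 153 at 2 W. The log2 fold change was 3.86 (standard error 0.38, edgeR adjusted p = 0.0629, DESeq2 adjusted p = 1.77e-17). Trem2, the lipid receptor that drives microglial phagocytosis, was at 24.6 and 20.6, 34.1 and 54.2 and 199 and 139 CPM in the same order (log2 fold change 2.90, edgeR adjusted p = 0.157, DESeq2 adjusted p = 1.17e-08). Its signalling adaptor Tyrobp went from 90.9 and 80.7 to 524 and 532 CPM (log2 fold change 2.61, edgeR adjusted p = 0.192, DESeq2 adjusted p = 5.42e-07). Tyrobp was at 102 and 220.1 CPM at 3 D. In all 3 genes both 2 W pools lay above both naïve pools and the levels at 3 D lay between.

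Itgax, the CD11c integrin, had 4.22 and 2.22 CPM in naïve UON, 1.77 and 2.06 at 3 D and 45.2 and 21 at 2 W, so that it was not raised at 3 D (2 W against 3 D, log2 fold change 3.98, DESeq2 adjusted p = 4.83e-11, edgeR adjusted p = 0.13). Cst7, a cystatin of lysosomes, had 6.27 and 1.81 and then 174 and 22.4 CPM, with the female pool far above the male. Lpl, a lipoprotein lipase, had 4.61 and 2.98 and then 121 and 6.08 CPM, a difference that only the female pool showed in size. Igf1 had 4.59 and 3.66 and then 24.8 and 43.3 CPM, and Lgals3, the galectin of phagocytes, 514 and 504 and then 1390.2 and 1349.7 CPM (DESeq2 adjusted p = 2.47e-07 and 0.004, edgeR adjusted p = 0.191 and 0.408). Of the members not called, Apoe had the highest CPM, with 3048 and 3622 CPM and then 6261 and 22003, where the pools of the 2 W group were far apart (edgeR adjusted p = 0.49). Cd63 (930.5 and 882, then 1476 and 1569 CPM) and Cd9 (715 and 756, then 1121 and 1427 CPM) did not pass either test.

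Fcgr3, which encodes the activating receptor FcγRIII, was at 15.7 and 17.5 CPM in naïve UON, 45.6 and 117 at 3 D and 115 and 226 at 2 W (log2 fold change 3.24, edgeR adjusted p = 0.122, DESeq2 adjusted p = 4.66e-11). Fcer1g, the γ chain through which these receptors signal, was at 43.8 and 43.2 and then 214 and 213 CPM (DESeq2 adjusted p = 0.000391, edgeR adjusted p = 0.378). Fcgr4 was low, at 0.6 and 1.87 and then 5.56 and 18.3 CPM. Both 2 W pools exceeded both naïve pools in each of these genes. Mpeg1, the perforin of macrophages, which belongs to neither list, had 15.8 and 18 and then 94.9 and 136 CPM (DESeq2 adjusted p = 3.6e-10, edgeR adjusted p = 0.103). In the alternative edgeR fit over all 12 UON libraries, 7 genes passed as higher, namely Fcgr3, Cd84, Igf1, Mpeg1, Fcrls, C3ar1 and Timp1.

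The promoters of 3 of these receptors are shown because DESeq2 called the 3 genes higher and the purine-rich core bound by PU.1, the lineage factor of microglia and macrophages, can be read in them. Each run is the 250 bases before the RefSeq start (GRCm38.p6), 5′ to 3′ on the gene's strand, in lower case, with GAGGAA or its reverse complement TTCCTC in capitals; Fcgr3 is at chr1:171059395-171059644 (minus strand), Fcgr4 at chr1:171018676-171018925 (plus strand) and Trem2 at chr17:48346151-48346400 (plus strand).
Fcgr3: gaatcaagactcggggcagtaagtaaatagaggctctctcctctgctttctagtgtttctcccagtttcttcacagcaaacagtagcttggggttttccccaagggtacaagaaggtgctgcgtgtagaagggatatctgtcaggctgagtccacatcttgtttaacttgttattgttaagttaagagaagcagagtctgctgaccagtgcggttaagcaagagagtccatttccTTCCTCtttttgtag
Fcgr4: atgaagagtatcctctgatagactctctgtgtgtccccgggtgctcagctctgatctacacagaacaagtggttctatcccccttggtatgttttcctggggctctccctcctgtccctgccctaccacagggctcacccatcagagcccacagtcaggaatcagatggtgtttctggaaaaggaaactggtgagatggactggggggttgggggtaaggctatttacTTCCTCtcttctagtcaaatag
Trem2: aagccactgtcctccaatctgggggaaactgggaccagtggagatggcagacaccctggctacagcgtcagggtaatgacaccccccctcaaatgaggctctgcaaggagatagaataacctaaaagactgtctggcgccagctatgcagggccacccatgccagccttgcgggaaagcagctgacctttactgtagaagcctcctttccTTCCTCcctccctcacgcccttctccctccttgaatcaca
In all 3 the capitals lie near the start, on the strand opposite to the gene. Of the 19 genes of both lists that DESeq2 called, 13 had a promoter in the RefSeq table and 6 of these (46.2%) held the letters on either strand, where 25.9% of all 27025 genes with a promoter in the table and 23.3% of all 32851 promoters did. Genes can have several promoters in the table, and a gene counts when any of them holds the letters. The match describes the sequence only.

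**Figure D3:**
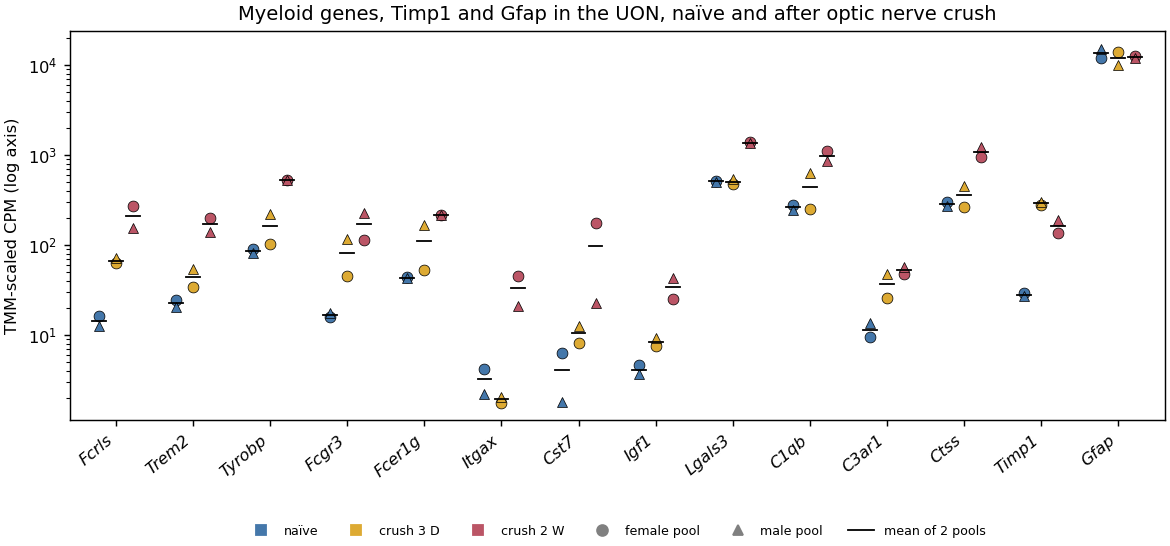
TMM-scaled CPM on a log axis of 12 myeloid genes, Timp1 and Gfap in each UON pool, naïve (blue), 3 D (yellow) and 2 W (red) after crush, with circles for female and triangles for male pools and bars for the mean of 2 pools. Both 2 W pools lie above both naïve pools for each gene but Gfap, whose pools overlap, and Timp1 was higher at 3 D than at 2 W.

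Of 14 markers of resting microglia DESeq2 called Fcrls, Aif1 and Olfml3 higher, of which only Fcrls was called without the naïve male pool, and the list had a median of 0.65. Aif1, which encodes IBA1, went from 12.6 and 13.4 to 48.4 and 101 CPM (DESeq2 adjusted p = 1.37e-05, edgeR adjusted p = 0.212). Among 15 genes of border and infiltrating macrophages the median was 1.11, with 9 log2 fold changes positive and 6 negative. Without overlap 6 lay higher and 2 lower, where 19.7% and 24.7% of all genes did. Against the mean of the naïve pools, the median log2 shift was 0.36 in the female and 2.00 in the male 2 W pool. DESeq2 called Lyz2, Adgre1, Ms4a7 and Msr1 higher. Without the naïve male pool it called 0 of the 15 genes, and without the male 2 W pool only Lyz2. Lyz2, lysozyme, was at 251 and 283 CPM in naïve UON and 978 and 4498 at 2 W, and Ms4a7 at 7.71 and 10.5 and 11.2 and 96 CPM. For both genes the male 2 W pool was several times higher than the female pool. Fn1, fibronectin, was not called, with 752 and 553 and then 340.2 and 293 CPM. Of lymphocyte genes, 14 of 17 passed the filter, and DESeq2 called Nkg7 (0.703 and 1.74, then 8.5 and 5.14 CPM) and Gzmb (0 in both naïve pools, then 1.4 and 0.634 CPM) higher. With either naïve pool left out it called 0 of the list, and with either 2 W pool left out 1.

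Of 18 complement genes, DESeq2 called the 3 chains of C1q and the receptor C3ar1 higher, and the median of the list was 0.23. C1qb was at 280.3 and 243 CPM and then 1111 and 854, C1qa at 109.6 and 102 and then 526 and 293, and C1qc at 198 and 151 and then 786 and 585 (DESeq2 adjusted p of 0.00441, 0.00694 and 0.00197, edgeR adjusted p of 0.47, 0.48 and 0.429). C3ar1 was at 9.49 and 13.4 and then 47.7 and 56.8 CPM. The rest of the cascade did not pass either test, with C3 at 173 and 276 and then 194 and 376 CPM, C4b at 1696 and 1956 and then 1359 and 915 CPM, and Clu, a fluid-phase inhibitor, at 4712 and 5477 and then 4937 and 2639 CPM. Without the naïve male pool DESeq2 called 0 of the 18 genes, and without the female 2 W pool 2 higher and 1 lower.

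In the lysosome list, 15 of 25 genes lay higher without overlap and 0 lower, where 19.7% and 24.7% of all genes did. The median of the list was 0.63. DESeq2 called Ctss, Ctsd, Cd68 and Atp6v0d2 higher. Ctss, the cathepsin of antigen-presenting cells, went from 302 and 270.2 to 939 and 1215 CPM (DESeq2 adjusted p = 0.000214, edgeR adjusted p = 0.314), and Ctsd from 2379.7 and 2507 to 8419.5 and 4468 CPM (DESeq2 adjusted p = 0.0307, edgeR adjusted p = 0.489). Ctsb was at 1579.6 and 1672 and then 2934 and 2371 CPM and was not called. Without the naïve male pool DESeq2 called 0 of these genes, and without the naïve female pool 2.

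For antigen presentation, 9 of 15 MHC class I genes and 8 of 11 class II genes lay higher without overlap, where 19.7% of all genes did. DESeq2 called only B2m, the light chain of class I, which had 382 and 552 and then 1246 and 1473 CPM (DESeq2 adjusted p = 0.00162, edgeR adjusted p = 0.378). B2m was not called without either of the naïve pools. H2-D1 was at 1098 and 1423 and then 2648 and 1577 CPM, and H2-K1 at 168 and 297 and then 460.1 and 474 CPM. Of 29 chemokines and receptors DESeq2 called 4 higher, and 2 without the naïve male pool. Ccl4 went from 4.24 and 3.98 to 33.4 and 19.3 CPM and Ccl3 from 3.8 and 2.09 to 27 and 4.46 CPM. Ccl8 was at 0 and 0.0871 and then 0.156 and 27.5 CPM, so its call rests on the male pool alone. Cxcl1, the neutrophil attractant, was at 0 and 0.348 and then 3.97 and 27.9 CPM. Of 29 genes of IL-1, TNF and Toll-like receptor signalling DESeq2 called Il1rn, Nlrp3, Tlr7 and Casp1 higher; Il1rn, the IL-1 antagonist, went from 0.165 and 0.784 to 2.7 and 6.23 CPM and Nlrp3, the inflammasome sensor, from 0.827 and 0.435 to 4.34 and 5.09 CPM. Without the naïve male pool DESeq2 called 0 of these 29 genes, and without the male 2 W pool none of the 4. It called 2 without the female 2 W and 1 without the naïve female pool.

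Gfap, the astrocyte filament, did not pass either test. It was at 11832 and 15083 CPM in naïve UON, 13797 and 9954 at 3 D and 12519 and 12044 at 2 W, with overlapping groups (log2 fold change -0.14, standard error 0.36, edgeR adjusted p = 0.933). Vim, the other filament of reactive glia, was at 2850 and 3595 CPM and then 6605 and 5957 (log2 fold change 0.97, edgeR adjusted p = 0.496). The lists of reactive astrocytes had medians of 0.82 (genes of any kind), 0.35 (A1) and 0.67 (A2). Against the mean of the naïve pools, their median log2 shifts in the female 2 W pool were -0.09, -0.12 and 0.26, in that order. In the male 2 W pool they were 0.51, 0.39 and 1.32. Of 13 genes of reactive astrocytes of any kind DESeq2 called only Timp1, an inhibitor of matrix proteases, which had 29.1 and 27.1 CPM in naïve UON, 280.1 and 299.8 at 3 D and 137 and 189.6 at 2 W (log2 fold change 2.52, edgeR adjusted p = 0.125, DESeq2 adjusted p = 7.86e-09). Serpina3n was at 379 and 527, 1524 and 1460 and 1023 and 636 CPM and was not called at 2 W. In the lists of A1 and A2 genes, which were defined in other injuries, DESeq2 called 1 of 12 and 3 of 12. They were Ggta1 (3.27 and 2.18, then 5.86 and 31.2 CPM) in the first and Ptx3 (30.3 and 28.2, then 76.1 and 185 CPM), S100a10 (113 and 137, then 281 and 662 CPM) and Tgm1 (0.517 and 2.53, then 5.23 and 19.1 CPM) in the second. Without the male 2 W pool none of these 4 was called.

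Of 20 genes of resting astrocytes, 10 lay lower without overlap, where 24.7% of all genes did, and 1 higher, and the median was -0.56. DESeq2 called Aldoc, the aldolase of brain astrocytes, lower, at 566 and 1073 CPM and then 231 and 175 (adjusted p = 0.00112, edgeR adjusted p = 0.394). Slc1a3, a glutamate transporter, was at 5065 and 4799 and then 2962 and 3938 CPM, and Gja1, the gap junction protein connexin 43, at 2753 and 2408 and then 1504 and 2100 CPM. Aqp4, the water channel of astrocyte endfeet, was at 352 and 305 and then 253 and 556 CPM. The last 3 genes did not pass either test. Without the female 2 W pool DESeq2 called 5 of the 20 lower, and without the male 2 W or the naïve male pool 0.

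**Figure D4:**
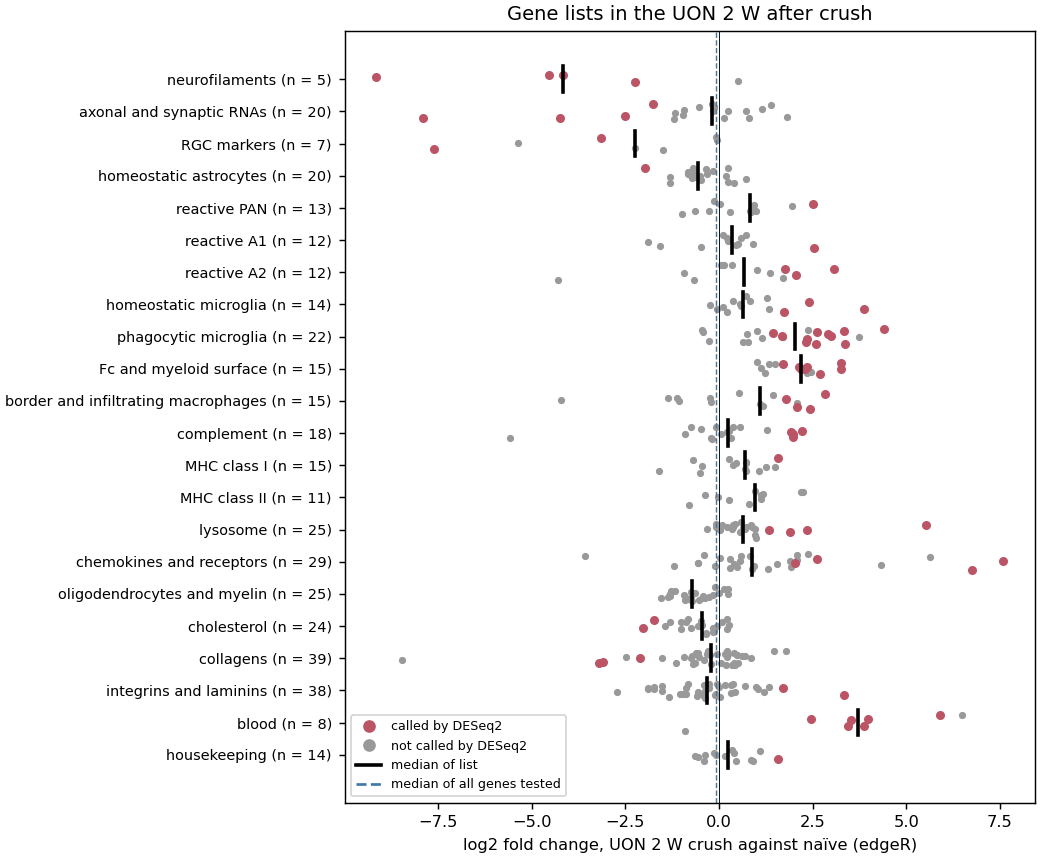
log2 fold change of UON at 2 W after crush against naïve UON (edgeR, x axis) for the genes of 22 lists, with genes that DESeq2 called in red, the others in grey, a black bar at each median and a dashed line at the median of all genes tested, -0.09. Neurofilaments lie to the left with a median of -4.17, phagocytic microglia and Fc and myeloid surface genes to the right with 2.02 and 2.195, and collagens and housekeeping genes near the middle.

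Myelin genes, which encode the sheath that oligodendrocytes form, differed in 1 of the 2 W pools. Mbp was at 19181 and 14349 CPM in naïve UON and at 15703 and 1733 at 2 W, so the female 2 W pool was at the naïve level and the male pool below it. DESeq2 called 0 of 25 genes of the list, as did edgeR, which gave Mbp an adjusted p of 0.651 and had 2 of the 25 at an unadjusted p under 0.05. Without the female 2 W pool DESeq2 called 14 of them. In 24 genes of cholesterol synthesis and uptake 11 lay lower without overlap and 1 higher, where 24.7% and 19.7% of all genes did. The genes that DESeq2 called lower included Insig1, a sensor of sterols (34.4 and 30.0, then 11.4 and 7.92 CPM). With either naïve pool left out, DESeq2 called 0 of the 24, without the female 2 W pool 5 and without the male 2 W pool 1. Hmgcs1 was at 140.3 and 147 and then 66.7 and 76.8 CPM (edgeR adjusted p = 0.489).

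The matrix lists were near the median of all genes, with -0.21 for 39 collagens and -0.32 for 38 integrins, laminins and other matrix receptors. Of these 38, 13 lay lower without overlap and 6 higher, where 24.7% and 19.7% of all genes did. DESeq2 called 2 of the 38 higher and 0 lower. DESeq2 called 3 collagens lower, among them Col2a1 (7.03 and 9.67, then 4.63 and 0.141 CPM), whose level in the male pool was below 3 read pairs, and 0 without the male 2 W or the naïve male pool. Without the female 2 W pool it called 5 lower and 1 higher. Mmp12, the elastase of macrophages, was called higher, at 1.76 and 0.631 and then 9.4 and 16.6 CPM (DESeq2 adjusted p = 0.000105, edgeR adjusted p = 0.442). A2m, a broad inhibitor of proteases, was called lower, at 44.7 and 76.7 and then 13.2 and 17.9 CPM (DESeq2 adjusted p = 0.0166, edgeR adjusted p = 0.48).

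The 43 cell cycle genes had a median log2 fold change against naïve of 4.11 at 3 D and of 0.13 at 2 W, when DESeq2 called 4 higher and 2 lower. Without the female 2 W pool it called 10 higher and 10 lower, and without the male 2 W or the naïve male pool 0 higher and 1 lower. Without the naïve female pool it called 2 higher and 0 lower. Top2a, the topoisomerase of dividing cells, was at 4.86 and 2.07 CPM in naïve UON, 197 and 57.6 at 3 D and 7.63 and 12 at 2 W (2 W against 3 D, DESeq2 adjusted p = 1.2e-06, edgeR adjusted p = 0.372). Cdk1, the kinase of mitotic entry, was at 2.42 and 1.2, 43.5 and 44.4 and 4.61 and 16.2 CPM, and DESeq2 called it higher than naïve at 2 W (adjusted p = 0.00893, edgeR adjusted p = 0.489). Cyclin Ccnb1 was at 1.72 and 1.94, 148 and 62.4 and 3 and 0.141 CPM. Ccnf was at 3.49 and 0.523, 17.1 and 13.1 and 0.0973 and 0 CPM and Bub1, of the spindle checkpoint, at 1.57 and 0.348, 12.6 and 9.69 and 0.0973 and 0 CPM, so that both went below the worth of 3 read pairs at 2 W, and DESeq2 called them lower than naïve.

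Immediate early genes, which cells switch on within minutes of a stimulus, were called higher by DESeq2 in 6 of 20 cases, and in 1 without the naïve female and 3 without the naïve male pool. Of all genes that DESeq2 tested, 1.14% were called higher. Egr1 went from 16.9 and 24.1 to 123 and 72.3 CPM, Fos from 24.2 and 46.1 to 133 and 73.7 and Junb from 33.5 and 32.4 to 89.3 and 155 CPM (DESeq2 adjusted p of 0.00348, 0.0434 and 0.00207, edgeR adjusted p of 0.469, 0.489 and 0.366). Neat1, a long non-coding RNA of nuclear paraspeckles, went from 21.4 and 13.8 to 304 and 62.7 CPM and was already at 139.6 and 94.9 at 3 D (DESeq2 adjusted p = 1.37e-07, edgeR adjusted p = 0.212). Such genes also respond to handling of the tissue, and the part of that in the result was not tested.

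Red blood cell genes were called higher by DESeq2 in the 2 W nerve. Haemoglobin genes Hbb-bs (44.1 and 98, then 1204 and 724 CPM) and Hba-a1 (82.5 and 191, then 1392 and 1229 CPM) were called by DESeq2 with adjusted p of 6.49e-11 and 9.48e-11 (edgeR adjusted p of 0.192 and 0.171). Their near-identical copies Hbb-bt and Hba-a2 moved alike, and reads can be shared between the copies. Over 8 red cell genes the summed CPM was 219.9 and 507 in the naïve pools, 574 and 1540 at 3 D and 4425 and 3441 at 2 W, and DESeq2 called 6 of the 8. The part of blood left in the tissue in the myeloid results was not tested. Of 11 neutrophil genes 4 passed the filter, of which 2 lay higher without overlap, 1 lower and 1 overlapped. The shares over all genes were 19.7%, 24.7% and 55.5%. The log2 fold changes of the 4 neutrophil genes ran from -6.65 to 9.71, and DESeq2 called 1 higher. That gene, S100a8, was at 0 in both naïve pools and 5.31 and 0.423 CPM at 2 W. Its call depended on the female 2 W pool and on each naïve pool. The median log2 shift of the list was 3.525 in the female and 0.249 in the male 2 W pool.

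Other genes stood out in the named lists. Vegfa, the vascular growth factor, was at 43.1 and 47.2 CPM in naïve UON and 9.03 and 7.06 at 2 W (log2 fold change -2.51, DESeq2 adjusted p = 3.17e-06, edgeR adjusted p = 0.171). Ngfr, the p75 neurotrophin receptor, was at 23.4 and 37.5 and then 2.96 and 1.34 CPM (log2 fold change -4.02, DESeq2 adjusted p = 2e-08, edgeR adjusted p = 0.212). Esm1, a proteoglycan of endothelial tip cells, was called higher, at 271 and 237 and then 1239 and 704 CPM (DESeq2 adjusted p = 0.00192, edgeR adjusted p = 0.424), as was Dhh, at 45.7 and 40.4 and then 194 and 111 CPM (DESeq2 adjusted p = 0.000662, edgeR adjusted p = 0.275). For Vegfa and Ngfr both 2 W pools lay far below both naïve pools. The DESeq2 calls of Vegfa and Ngfr depended on the naïve male pool, and those of Esm1 and Dhh on the naïve female pool. Cartpt, a peptide gene whose level in naïve UON is high, was at 5568 and 3979 CPM, 1462 and 1118 CPM at 3 D and 3874 and 3199 CPM at 2 W, where neither tool called a difference from naïve (edgeR adjusted p = 0.709).

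Of 38 genes that the study names for the injured nerve or as cell markers, DESeq2 called 12 higher and 8 lower at 2 W in UON, and edgeR 0. Without the naïve male pool DESeq2 called 5 higher and 1 lower, without the naïve female pool 6 and 2, and without the male 2 W pool 7 and 3. Some of the genes, such as Serping1, Stat3 and Sphk1, the study names as reported markers of astrocyte or microglial responses. It picked others by their changes after crush or bead injection in this series, so the counts are not independent evidence. The genes called higher were C1qa, Cd68, Cdk1, Cdkn2c, Cks2, Egr1, Fcgr3, Gp1bb, Neat1, Ptx3, Timp1 and Trim56. Those called lower were A2m, Bub1, Ccnf, Cnn1, Col2a1, Nhlrc3, Oas3 and Slc39a14. Those not called included Stat3 (277 and 311, then 347 and 206 CPM), Serping1 (854 and 899, then 856 and 1198 CPM), Sphk1 (45 and 26.9, then 29.7 and 9.62 CPM) and Ccnd1 (542 and 650.3, then 853 and 589.5 CPM).

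Transcript length moved with the groups. Against the mean of the naïve pools, genes in the shortest of 4 classes of transcript length (by the longest annotated transcript, for genes at a mean of at least 1 CPM) were shifted by a median log2 difference of 0.28 in the female and 0.72 in the male 2 W pool, and those in the longest class by -0.24 and -0.41. The naïve pools differed from their mean by at most 0.04 in any class. DESeq2 called 72 genes higher and 7 lower in the shortest class and 33 higher and 147 lower in the longest. With offsets that took out this trend, edgeR called 5 genes, which were all among the 6 and lacked Sptbn4 (log2 fold change -8.28 against -8.69, adjusted p = 0.0523), and DESeq2 called 430, of which 358 were among its 515. Of the 98 genes named in the text that DESeq2 called, 82 were called with these offsets. The other 16 were B2m (DESeq2 adjusted p with offsets 0.185), C1qa, C1qb, Cd68, Lgals3, Ctsd, Ccl3, Nkg7, S100a10, Fos, Cks2, Col2a1, Slc39a14, Nhlrc3, Gp1bb and Pou4f1, with adjusted p of 0.0519 to 0.348. Of the 6 immediate early genes that DESeq2 called higher, 3 were called higher with these offsets. Kif5a, Unc13c, Rims1, Trem2 and Igf1 are in the longest class, Nrsn1 in the second and Tyrobp and Fcgr3 in the shortest.

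**Figure D5:**
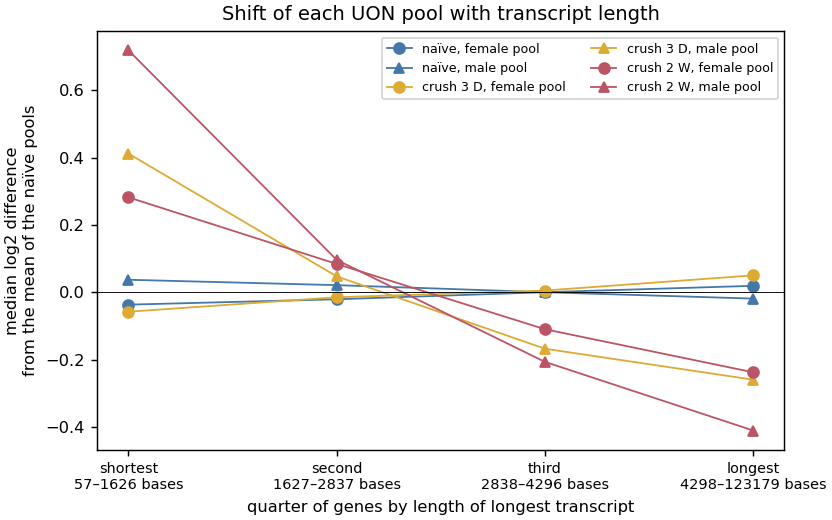
Median log2 difference of each of the 6 UON pools from the mean of the naïve pools (y axis) for genes in 4 classes of transcript length (x axis, longest transcript of each gene in bases). The male and female 2 W pools and the male 3 D pool slope down from the shortest to the longest class, from 0.72 to -0.41 in the male 2 W pool, while the female 3 D pool and the naïve pools are flat.

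Set against the UON at 3 D after crush, with which it shares the crush but not the naïve pools, the 2 W UON was lower in 1 gene by edgeR (0.00468% of the genes tested, with 0% higher) and in 277 genes by DESeq2 (1.38%), which also called 81 higher (0.404%). The edgeR gene was Rph3a, at 310.3 and 194 CPM at 3 D and 1.75 and 1.18 at 2 W (log2 fold change -7.42, edgeR adjusted p = 0.034). For Kif5a the log2 fold change from 3 D to 2 W was -6.39 (DESeq2 adjusted p = 0.0015, edgeR adjusted p = 0.0507) and for Nefh -8.02 (DESeq2 adjusted p = 5.67e-28, edgeR adjusted p = 0.0754). For Trem2 it was 1.93 (DESeq2 adjusted p = 0.00116, edgeR adjusted p = 0.379), while Fcgr3 differed by 1.12 and did not pass DESeq2 (adjusted p = 0.198). Cenpa, a centromere histone, was at 69.3 and 50.9 CPM at 3 D and 3.21 and 2.38 at 2 W (DESeq2 adjusted p = 1.73e-19, edgeR adjusted p = 0.0549).

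The MON, behind the UON and at the site of the crush, was compared at the same time by the difference of its response from that of the UON. edgeR called 0 of 25011 genes in either direction (0%), with 2728 at an unadjusted p under 0.05, and DESeq2 called 226 genes with a higher response in UON (1.31%) and 398 with a lower one (2.3%). Kif5a and Rph3a were lower after crush in both regions, with log2 fold changes of -7.90 and -8.69 in UON and -6.36 and -7.92 in MON, and the difference did not pass DESeq2 (adjusted p = 0.187 and 0.644). Rims1 was lower in UON by more than in MON (-7.91 and -3.12, DESeq2 adjusted p of the difference = 0.00057, edgeR adjusted p = 0.151), and Nefl by less (-4.55 and -8.29, DESeq2 adjusted p of the difference = 0.000859, edgeR adjusted p = 0.146).

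Myeloid genes had positive changes in both regions. Trem2 had log2 fold changes of 2.90 in UON and 3.02 in MON, and Tyrobp of 2.61 and 2.75. Igf1, Clec7a and Lilrb4a had larger ones in MON (5.59, 4.71 and 6.12) than in UON (2.99, 2.33 and 2.195), with DESeq2 adjusted p of the difference of 0.0488, 0.0274 and 0.000804 and edgeR adjusted p of 0.244, 0.205 and 0.146. The phagocytic list had a median of 2.02 in UON and 2.96 in MON. The matrix lists lay further apart, with medians of -0.21 and 1.27 for collagens and -0.32 and 1.11 for integrins and laminins. The cholesterol list had -0.46 and -2.06, and the blood list 3.70 and -0.83. The list medians were not tested.

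Among single genes with opposite signs in both regions were A2m and S1pr3, each chosen after its values were seen. A2m was at 43.7 and 73.8 CPM without TMM scaling in naïve UON and 13.4 and 17.4 at 2 W, and at 15.9 and 14 and 68 and 65.9 in MON (difference of log2 fold changes -4.07, DESeq2 adjusted p = 8.88e-06, edgeR adjusted p = 0.146). S1pr3, a sphingosine 1-phosphate receptor, was at 3288 and 3412 and 2165 and 1438 in UON and at 662 and 379 and 1826 and 2861 in MON (difference -3.21, DESeq2 adjusted p = 0.000616, edgeR adjusted p = 0.151). Vegfa was lower in UON and near its naïve level in MON (difference -2.19, DESeq2 adjusted p = 0.00113, edgeR adjusted p = 0.146).

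Against the UON 2 W after microbead injection, a model of glaucoma in which the eye pressure is raised, the crushed nerve was lower in 10 genes by edgeR (0.0418% of 23927 genes, with 0% higher) and in 349 by DESeq2 (1.68%), which called 189 higher (0.907%). The 10 genes were Kif5a, Mapk8ip2, Nefh, Nrsn1, Ppfia3, Rims1, Rph3a, Tmem151b, Unc13c and Vwa5b2, which are all named above. Kif5a was at 10590 and 9292 CPM without TMM scaling in the bead-injected UON against 100.2 and 43.6 after crush (log2 fold change -7.02, edgeR adjusted p = 0.0203), and Rph3a differed by -7.91 (edgeR adjusted p = 0.00348). For Fcrls the difference was 1.99 (edgeR adjusted p = 0.122, DESeq2 adjusted p = 0.000119), for Itgax 3.28 (edgeR adjusted p = 0.201, DESeq2 adjusted p = 1.14e-05), and for Gfap 0.20 (edgeR adjusted p = 0.85). This comparison shares the 2 W crush pools with the others.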

How the data were processed

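Per the submitters' notes and the study's methods, HISAT2 (2.2.1) mapped the paired reads to GRCm38 and StringTie (1.3.0) assembled transcripts on Gencode M25. The authors deposited estimated counts per gene, made from coverage by StringTie's count script, and FPKM per gene. A read pair makes up about 4 estimated counts, and values near 3 pairs carry large counting error.

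Estimated counts of the 6 naïve and crushed UON libraries were tested with edgeR (4.0.16, R 4.3.3): TMM, filterByExpr (minimum count 10, minimum total 15), group and sex, Benjamini-Hochberg adjustment over all genes tested. DESeq2 (1.42.0) with the study's model and limma (3.58.1) on log2 of the deposited FPKM plus 1 or 0.1 were alternatives. Comparison with MON used 12 libraries, and that with bead injection all 12 UON libraries. Scripts were tested on simulated counts. Transcript lengths came from Gencode M21 on GRCm38.

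The genes and lists were chosen with earlier results of these data known. Named were the edgeR calls, called or abundant members of each list, and the genes that the study names for the injured nerve or as cell markers. The named genes outside these were chosen after their values were seen. The authors' own comparison values were not used.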

Additional observations from a re-analysis of the deposited data

Results flagged for a closer look

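Several genes of the text moved one way in both UON pools and the opposite way in both MON pools between naïve and 2 W. They were picked from the named genes by this rule in these same pools, so the p-values of the differences are not independent support. The study had already reported opposite changes at this time, in these samples, for A2m, Col2a1, Cnn1, Slc39a14, Nhlrc3, Trim56, Gp1bb, Bub1 and Oas3. The genes compared between times within the UON, further below, were picked in the same way. Each value here is the difference of the UON from the MON response, fitted in 1 edgeR model of the 12 libraries of both tissues. The 2 changes given after "from" come from a separate fit of each tissue, so they need not subtract to it exactly. The difference was tested by edgeR, which called none, and by DESeq2, whose adjusted p is given. Lower in UON and higher in MON were Fn1 (-3.49, from -1.07 and 2.39, DESeq2 adjusted p = 0.0235), S1pr3 (-3.21, from -0.99 and 2.22, 0.000616), A2m (-4.07, from -1.97 and 2.10, 8.88e-06), Col2a1 (-4.11, from -3.21 and 1.96, 0.0478), Cnn1 (-4.56, from -1.68 and 2.88, 0.000173), Slc39a14 (-2.85, from -1.48 and 1.41, 0.000198) and Nhlrc3 (-2.64, from -1.65 and 1.08, 0.00491). Slc1a3 also had opposite signs (-1.64, from -0.49 and 1.21), but DESeq2 did not call it (adjusted p = 0.216).

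Higher in UON and lower in MON were Hba-a1 (4.10, from 3.46 and -0.86, DESeq2 adjusted p = 0.000421), Hba-a2 (4.21, from 3.54 and -0.89, 0.000331), Hbb-bs (4.55, from 3.97 and -0.83, 0.000124), Trim56 (4.28, from 2.05 and -2, 0.000526) and Gp1bb (7.36, from 3.99 and -3.33, 9.7e-06). Gp1bb was at 0.145 and 0.196 CPM in naïve UON, below the worth of 3 read pairs, so its fold is a fitted value.

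For Ccnf, Bub1 and Oas3 at least 1 UON pool at 2 W was at 0 and the fitted folds are no bounds. The difference of the UON from the MON response was -6.67 for Ccnf (DESeq2 adjusted p = 9.19e-06), -7.20 for Bub1 (0.000295) and -7.85 for Oas3 (6.12e-05). Oas3 was at 6.6 and 1.68 CPM in naïve UON and 0.545 and 0 at 2 W.

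Within the UON, 3 genes had opposite signs of the log2 fold change from naïve at 3 D and at 2 W, although Itgax did not pass either test at 3 D (-0.64, DESeq2 and edgeR adjusted p = 1), and the contrast of 2 W with 3 D, which does not use the naïve pools, was -8.86 for Ccnf (DESeq2 adjusted p = 2.52e-14), -8.35 for Bub1 (2.73e-12) and 3.98 for Itgax (4.83e-11).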

How the results depend on the processing

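The 6 genes that fell in UON at 2 W were called again by edgeR with RLE size factors, without a sex term, with counts divided by 4 and with robust dispersions, and the count depended on the tool and on which libraries entered. Against 6 genes (0 higher, 6 lower), DESeq2 called 515 (220 and 295), edgeR without a filter on low counts 55 (24 and 31), edgeR on the 4 libraries compared 0 (0 lower), edgeR on all 12 UON libraries 28 (7 and 21), and limma 24 (9 and 15) with a pseudocount of 1 on FPKM and 27 (11 and 16) with 0.1. Leaving out 1 pool in turn, which assumes that the lone pool varies like the other groups, gave 16 to 42 genes by edgeR (1 to 12 higher, 15 to 39 lower) and 116 to 1976 by DESeq2 (67 to 506 higher, 49 to 1470 lower). Fits with a pool left out also tested more genes. The cause of the other shifts was not tested. Sptbn4 was not called with all 12 UON libraries (log2 fold change -8.40, edgeR adjusted p = 0.0592) or with length offsets (-8.28, 0.0523), against -8.69, nor Mapk8ip2 without the female 2 W pool (-5.29, 0.0562), against -5.21.

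Against 3 D, 1 gene became 358 by DESeq2, 4 without a sex term and 8 to 147 with a pool left out. The difference from MON went from 0 genes to 624 by DESeq2 and 0 to 1287 with a pool left out, the highest without the female 2 W UON pool. The difference from bead injection went from 10 genes to 538 by DESeq2 and 10 to 831 with a pool left out, again the highest without the female 2 W UON pool.

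With a pool left out, medians ran from -5.02 to -3.48 for neurofilaments, 1.44 to 2.37 for phagocytic microglia, 0.312 to 0.845 for lysosome, -0.006 to 0.42 for complement and 2.73 to 4.19 for blood genes. The complement median was 0.27 with RLE, and the blood median 3.52 without a sex term and 2.94 with length offsets. DESeq2 called 7 to 12 phagocytic, 1 to 10 Fc and myeloid surface, 0 to 4 complement, 0 to 5 lysosome, 0 to 5 resting astrocyte, 0 to 5 cholesterol and 0 to 14 myelin genes with a pool left out, and 2 complement genes with length offsets. Length offsets, robust dispersions and the DESeq2 alternatives were chosen after seeing the data.

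Of genes that were not called, the sign of the log2 fold change turned with a pool left out for Fn1 (-2.12 to 0.18), Clu (-1.01 to 0.038), C3 (-0.25 to 0.78), Gfap (-0.44 to 0.21), Aqp4 (-0.46 to 0.86), Ccnb1 (-3.42 to 0.41), Stat3 (-0.57 to 0.31) and Ccnd1 (-0.10 to 0.63), and with length offsets for Stat3 (0.23) and Serping1 (-0.007). The labels pair the pools of the groups by sex alone, and sex was a term of the model. Genes near 3 read pairs carry large counting error, which limits calls such as those of Pou4f1, Bub1 and Gzmb.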

Other observations

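Of 46 genes of apoptosis and p53 signalling 45 were tested, 19 lay higher in both 2 W pools than in both naïve pools and 3 lower, where 19.7% and 24.7% of all genes did, and DESeq2 called 4 higher and 1 lower (0 without the naïve male pool, and 1 higher without the male 2 W or the naïve female pool), with a median log2 fold change of 0.58. Interferon-stimulated genes had a median of -0.54, and 28 of 36 overlapped between the groups, where 55.5% of all genes did. Against the mean of the naïve pools, the median log2 shift of these 36 was -1.04 in the female and 0.51 in the male 2 W pool. Genes of Wnt and of TGF-β and BMP signalling had medians of -0.72 and -0.40, with 17 of 37 and 18 of 38 lower without overlap and 0 called by DESeq2 in either list, and 7 and 4 called lower without the female 2 W pool. At an unadjusted edgeR p under 0.05 there were 8 and 6.

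Among other cell types, endothelial genes had a median of -0.01 over 20 genes and genes of pericytes and smooth muscle 0.12 over 13. Photoreceptor genes, which can enter with retina at the cut, summed to 107 and 75.9 CPM in the naïve pools and 69.5 and 46.8 CPM at 2 W over 18 genes. Postn, a matrix protein of fibroblasts, was at 15.3 and 21.4 CPM in naïve UON and 18.9 and 229 at 2 W, so the male pool alone was high. Housekeeping genes had a median of 0.25.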
